A study of Mus musculus with 4 samples.

Results

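Yap1, Wwtr1 and the DNA-binding and competing factors they meet on chromatin were followed through the cell types of the embryonic mouse nose. The 8 genes were Yap1, Wwtr1 (whose protein is TAZ), Tead1, Tead2, Tead3, Tead4, Vgll3 and Vgll4. They were picked by symbol from the 32285 genes of the deposited matrices and read in the 13739 cells, of 15863 barcodes, that passed minimums of quality (500 or more genes seen, mitochondrial UMIs no more than 10%). UMIs are the molecular tags by which captured transcripts are counted. Whole noses at embryonic day 14.5 gave 2 control and 2 mutant libraries, made with a 10x Genomics 3′ assay. The controls are titled WT and have the genotype label C57Bl/6J, while the series design gives them as yap flox/flox;taz flox/flox without Cre, and the files do not settle which holds. The mutants are titled Sox10Cre/Yap/Taz cKO, and the design gives them as Sox10cre;yap flox/WT;taz flox/flox, so that they keep an unfloxed Yap1 allele in every cell. The Cre line is Tg(Sox10-cre)1Wdr, which recombines in Sox10-expressing cells of the neural crest lineage and not in the whole nose. Which of the cell classes below descend from recombined cells was not measured. The labels name 2 noses for each genotype and do not say whether each library is 1 animal, so p-values measure the spread between these libraries.

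YAP1 and TAZ are transcriptional coactivators without a DNA-binding domain of their own. When the Hippo kinases STK3, STK4, LATS1 and LATS2 are active they are phosphorylated and kept in the cytoplasm, and otherwise they enter the nucleus and bind the TEAD factors, which hold the DNA contact. VGLL4 binds TEADs at an overlapping surface and competes with the coactivators, and VGLL3 is another Vestigial-like cofactor of TEADs. All of this regulation acts on the proteins, which were not measured here. The 3′ assay counts the end of a transcript, the labels do not say which exons were floxed, and a transcript that lacks floxed exons can still be counted.

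In GRCm38, Yap1 spans chromosome 9 from 7931999 to 8004596 on the minus strand, and Wwtr1 chromosome 3 from 57455649 to 57575910 on the minus strand. Tead1 lies on chromosome 7 from 112679318 to 112906807, Tead2 on chromosome 7 from 45215753 to 45233644, Tead3 on chromosome 17 from 28331671 to 28350817 and Tead4 on chromosome 6 from 128224288 to 128300823. Vgll3 spans chromosome 16 from 65815257 to 65866368, and Vgll4 chromosome 6 from 114860628 to 114969994. Tead2 overlaps the antisense gene Cd37, a leukocyte gene. Yap1 likewise overlaps Gm20416 and Tead1 overlaps 2310014F06Rik, each on the opposite strand and among the counted genes. The strand setting of the counting is not given in the sources used here.

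The promoters below are shown because the TEAD core motif, GGAATG, occurs in the windows of several members. Each line is 250 bases upstream of an annotated start, from RefSeq on GRCm38.p6, with the motif or its complement CATTCC in capitals.
Yap1, chr9:8004597-8004846, minus strand: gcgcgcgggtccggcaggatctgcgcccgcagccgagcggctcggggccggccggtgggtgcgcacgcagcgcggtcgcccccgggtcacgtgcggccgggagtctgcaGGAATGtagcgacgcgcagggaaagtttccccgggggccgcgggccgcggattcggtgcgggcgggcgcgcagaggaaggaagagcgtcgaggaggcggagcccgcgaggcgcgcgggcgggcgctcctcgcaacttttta
Wwtr1, chr3:57575911-57576160, minus strand: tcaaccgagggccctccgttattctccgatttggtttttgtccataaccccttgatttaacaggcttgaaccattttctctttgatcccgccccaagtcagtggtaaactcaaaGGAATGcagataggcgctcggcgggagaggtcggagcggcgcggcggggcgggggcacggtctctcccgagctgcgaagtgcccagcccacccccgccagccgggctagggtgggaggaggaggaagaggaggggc
Vgll3, chr16:65814939-65815188, plus strand: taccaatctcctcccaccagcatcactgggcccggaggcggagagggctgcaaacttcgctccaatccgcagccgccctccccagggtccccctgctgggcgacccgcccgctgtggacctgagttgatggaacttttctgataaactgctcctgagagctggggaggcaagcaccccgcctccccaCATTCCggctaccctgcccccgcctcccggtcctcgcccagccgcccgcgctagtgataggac
Tead3, chr17:28350601-28350850, minus strand: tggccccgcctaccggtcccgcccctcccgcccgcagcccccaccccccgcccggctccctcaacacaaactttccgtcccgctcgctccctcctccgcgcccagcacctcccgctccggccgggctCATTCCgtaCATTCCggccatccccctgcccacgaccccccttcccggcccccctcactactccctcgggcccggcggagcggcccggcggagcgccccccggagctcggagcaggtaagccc
Of the 6 members with a window in the table, 5 held the motif on either strand (Yap1, Wwtr1, Vgll3, Vgll4 and Tead3) and Tead2 did not. Tead3 had a pair of matches in the window shown. Among all 32851 windows of that length in the table, 12.6% held it, and 14.4% of the genes held it in any of their windows. A match is a description of the letters and says nothing of binding.

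Cells were assigned to classes by marker genes that do not include any member: a cell needed at least 4 detected markers of 1 list only. In 11 classes every library held 10 or more cells, and these were tested. In the order control 1, control 2, mutant 1 and mutant 2 (the order used throughout), glia numbered 31, 22, 31 and 16 cells, and mesenchyme 2162, 1414, 1748 and 2074. Epithelial cells were split into a basal keratin class with at least 2 of Krt5, Krt14, Krt15, Krt17 and Trp63, and a simple class with none of them. In every class all of 5 to 7 further marker genes not used for gating had a higher mean than in the other classes, and the glia carried Fabp7, S100b, Npy, Ednrb and Art3. The glia were not split into ensheathing and Schwann cells, and Fabp7 varied in them between 2733 CPM (UMIs scaled to 1000000 UMIs of the class in a library) in control 2 and 13221 CPM in control 1. The simple class was led by Ttr, Bpifa1, Htr2c and Otx2, so it mixes epithelia of several kinds, with choroid plexus genes at the top. Its make-up differed between the groups, with Bpifa1 at 460, 0, 4034 and 2622 CPM and Cbr2 at 108, 35.9, 501 and 309 CPM. Of its other further markers, Elf3, Spint1 and Prss8 were also higher in both mutants, while Grhl2 and Ovol1 overlapped. Between 603 and 1217 cells of a library passed no gate and 46 to 141 passed several. Deposited libraries held 20170229 to 35887490 UMIs, the median kept cell had 5282 (mutant 2) to 8549 UMIs (mutant 1), and pairs of libraries shared 4 to 8 barcodes.

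Yap1 was found at a similar level in most classes, whereas Wwtr1 varied widely between them. A 3′ count does not scale with transcript length, but the ease of capturing each 3′ end can differ between genes. Over the 10 classes other than macrophages, the mean Yap1 level ran from 29.8 CPM in the neuronal lineage to 84.1 CPM in basal keratin epithelium, a 2.83-fold range. Over the same classes the mean Wwtr1 level ran from 23.6 CPM in the neuronal lineage to 289.6 CPM in endothelial cells, a 12.3-fold range. The plot of levels by class and library shows all 8 genes.

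**Figure D1:**
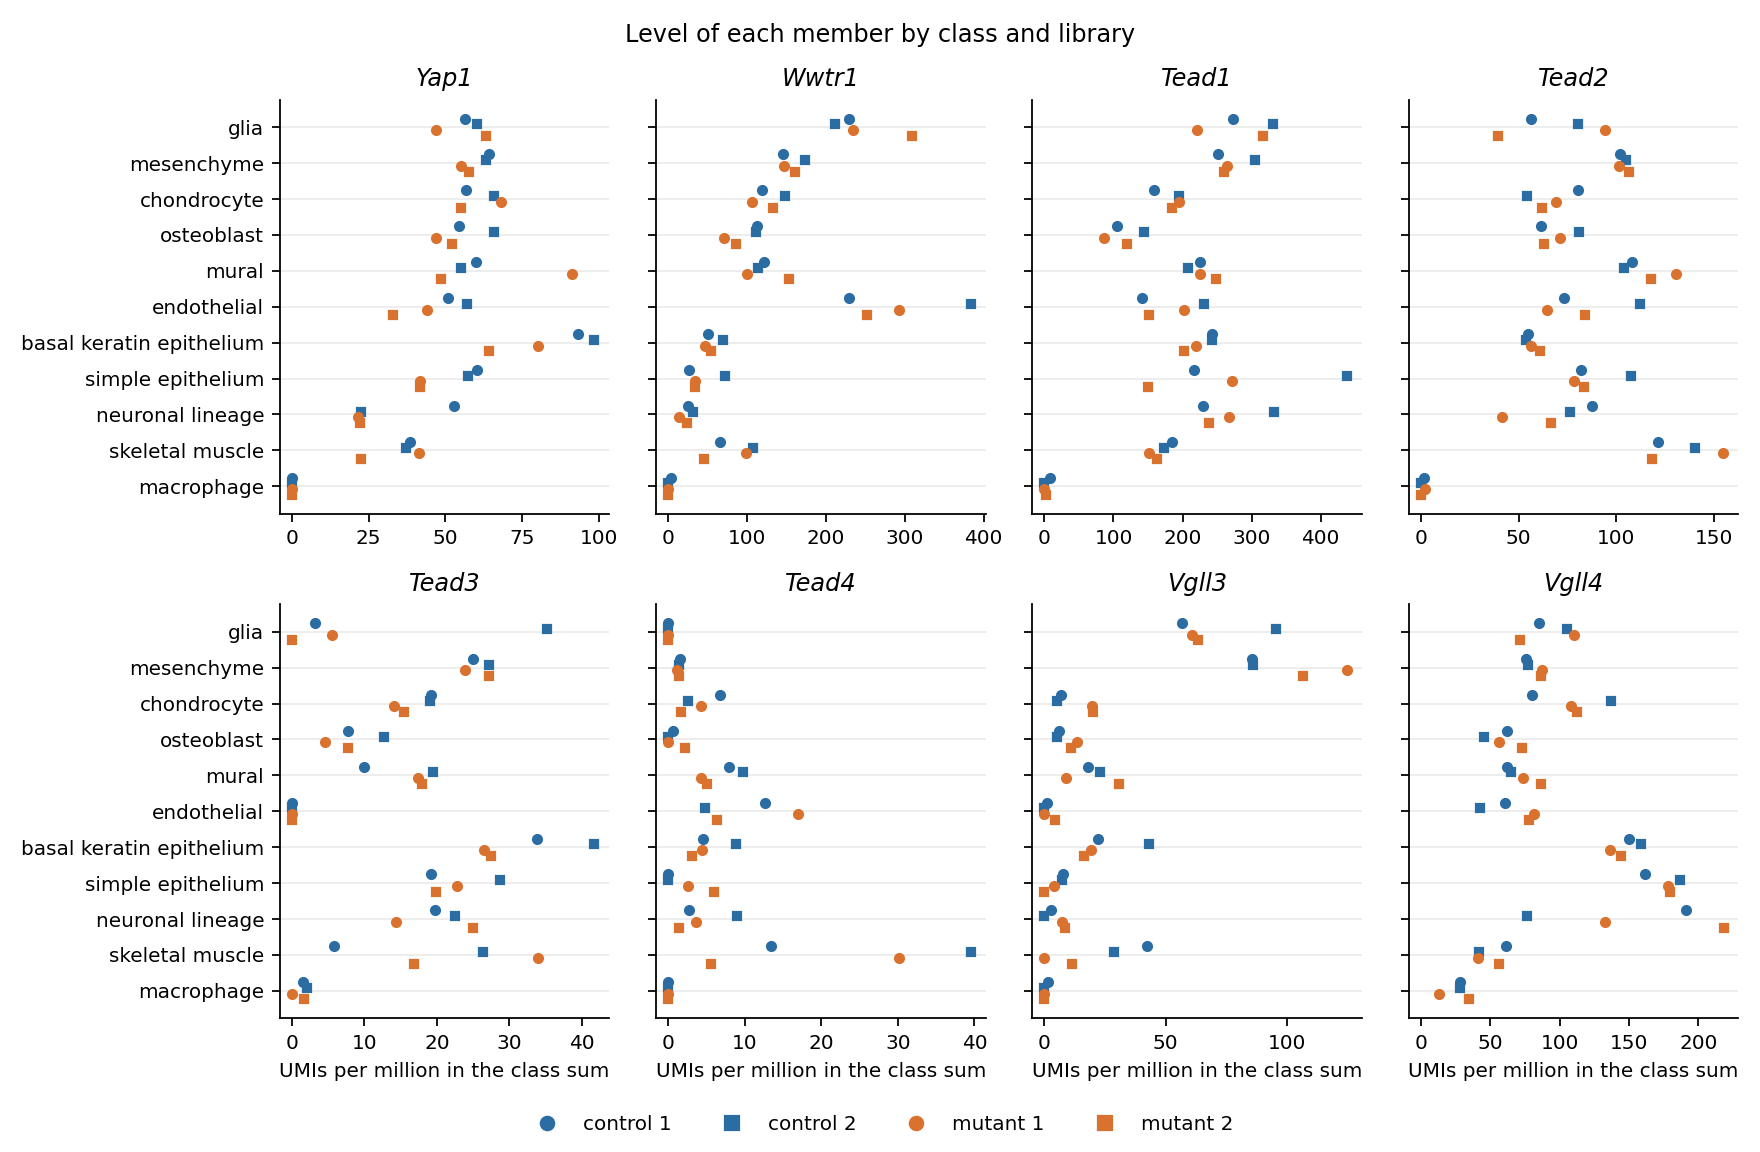
Level of each of the 8 genes (x axis, CPM of the class in that library, linear) in 11 marker-gated classes (y axis), with 1 point per library (circles replicate 1, squares replicate 2, blue control, orange mutant). Outside macrophages the class means of Yap1 span a 2.83-fold range, Wwtr1 is highest in endothelial cells and glia, and Vgll3 is highest in mesenchyme.

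The highest Yap1 values were those of basal keratin epithelium, at 93.3, 98.6, 80.2 and 64.4 CPM. Mesenchyme held Yap1 at 64.4, 63.5, 55.3 and 57.8 CPM, chondrocytes at 56.9, 66.0, 68.2 and 55.2 CPM, and glia at 56.6, 60.3, 47.0 and 63.3 CPM. The middle of the order (mural, chondrocyte, mesenchyme, glia, osteoblast and simple epithelium, means 63.8 down to 50.3 CPM) overlapped between neighbours in every case. Skeletal muscle had 38.5, 37.3, 41.5 and 22.5 CPM and the neuronal lineage 52.9, 22.5, 21.6 and 22.1 CPM. In the neuronal lineage control 1 stood above the other libraries. No Yap1 UMI was seen in 227 macrophages, which allows up to 1.39 CPM, so the level was at least 43.2-fold lower than in mesenchyme.

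Wwtr1 was highest in endothelial cells (229.6, 384, 292 and 253 CPM) and glia (229.6, 211, 235 and 309 CPM), and these classes overlapped. Every glia library was above every mesenchyme library (146, 174, 146 and 161 CPM). Chondrocytes (119, 148, 106 and 133 CPM), mural cells (122, 114, 99.9 and 153 CPM) and osteoblasts (113, 112, 71.1 and 86.4 CPM) followed, and neighbours overlapped. The epithelia were low: 50.0, 69.0, 46.6 and 53.9 CPM in the basal keratin class and 26.9, 71.8, 34.1 and 33.9 CPM in the simple class. The neuronal lineage was lowest of the 10 at 25.1, 31.5, 14.4 and 23.5 CPM. Macrophages gave 2 Wwtr1 UMIs in all, both in control 1.

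Each class was set against mesenchyme, the most numerous class, in an edgeR quasi-likelihood fit over 11206 genes with library as a block and Benjamini-Hochberg adjustment at 0.05. This reference was chosen after seeing that the planned one, the mean of the other classes, is pulled down by macrophages, in which 7 of the 8 genes are at or near 0. Against mesenchyme, Wwtr1 was higher in glia (log2 difference 0.58 ± 0.16 SE, adjusted p = 0.00566), in a contrast that called 23.6% of genes. In endothelial cells Wwtr1 was higher by 0.94 ± 0.14 (adjusted p = 2.57e-07), in a contrast that called 47.6%. Wwtr1 was lower in basal keratin epithelium (-1.50, 51.7% called), simple epithelium (-2.14, 44.7% called), the neuronal lineage (-2.84, 48.9% called), skeletal muscle (-0.78, 43.4% called), osteoblasts (-0.54, 32.2% called) and macrophages (62.1% called). The chondrocyte contrast (13.3% called) and the mural contrast (24.4% called) did not call it.

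Yap1 moved less between classes. Against mesenchyme it was higher in basal keratin epithelium (0.50 ± 0.12, edgeR adjusted p = 0.000791) and lower in the neuronal lineage (-0.96 ± 0.17, edgeR adjusted p = 1.07e-05), skeletal muscle (-0.60 ± 0.20, edgeR adjusted p = 0.0164) and macrophages. It was not called in the other 6 classes, where the log2 difference ran from -0.33 ± 0.16 in endothelial cells to 0.04 ± 0.18 in mural cells. Over the 8 genes and 10 classes, 7 gene-class pairs were higher than mesenchyme, 34 lower, 29 not called, and the 10 of Tead4 were filtered out for low counts. Of all tests in these contrasts together, 18.7% were higher and 20.5% lower. With the planned reference, 44 pairs were higher than the mean of the other classes and 12 lower, against 21.9% and 14.0% of all tests. Without macrophages 23 were higher, in contrasts that called from 1197 (glia) to 2970 (mesenchyme) of 11192 genes higher.

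The balance of the coactivators differed between classes and is given as Yap1 UMIs in percent of Yap1 plus Wwtr1 UMIs. Over all cells it was 35.4%, 31.0%, 31.5% and 29.8%. It was lowest in endothelial cells (18.1%, 13.0%, 13.1% and 11.6%) and glia (19.8%, 22.2%, 16.7% and 17.0%). Mesenchyme lay at 30.6%, 26.7%, 27.4% and 26.4%. Yap1 made up the larger part in basal keratin epithelium (65.1%, 58.9%, 63.2% and 54.5%) in all 4 libraries. In simple epithelium (69.1%, 44.4%, 55.0% and 55.3%) and the neuronal lineage (67.8%, 41.7%, 60.0% and 48.5%) the libraries fell on both sides of an equal share. The neuronal values rest on 12 to 87 UMIs of the 2 genes per library.

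**Figure D2:**
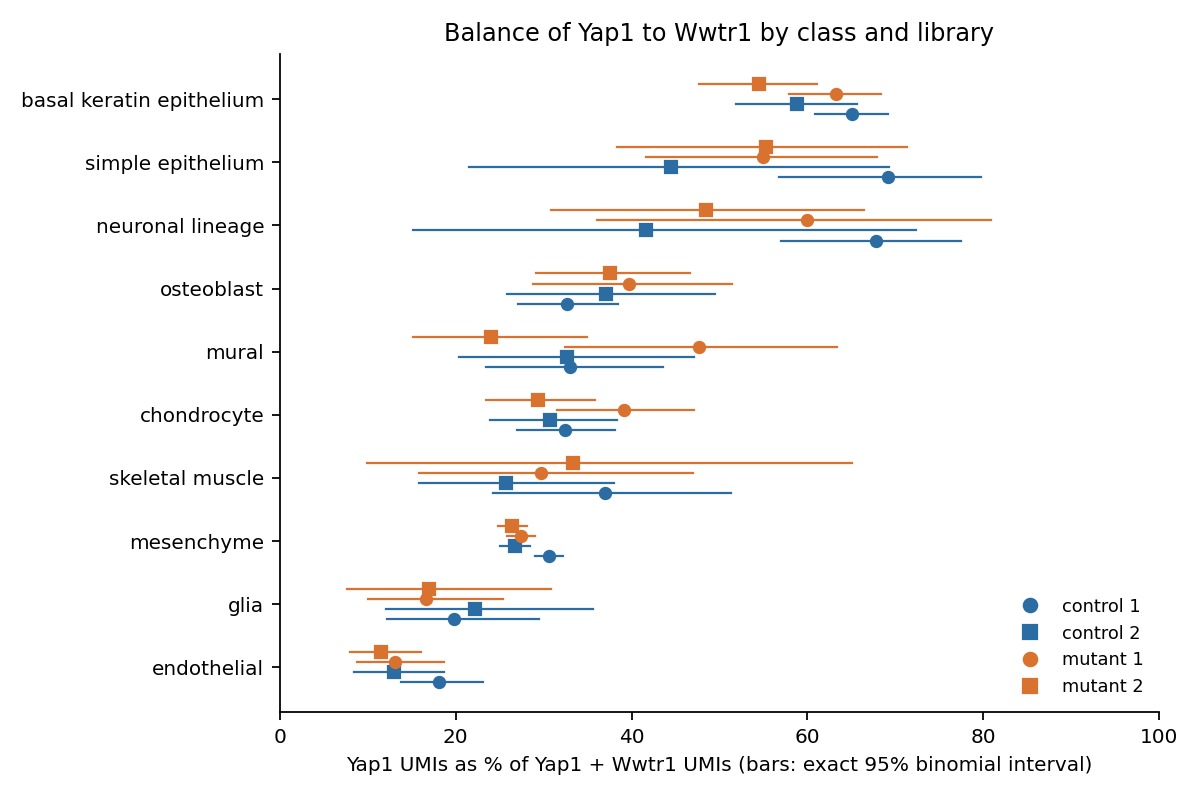
Yap1 UMIs in percent of Yap1 plus Wwtr1 UMIs (x axis) in 10 classes (y axis), 1 point per library with its exact 95% binomial interval, which covers counting error only. Endothelial cells and glia lie below mesenchyme in every library, and basal keratin epithelium lies above 54% in every library.

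Relative to mesenchyme of the same library, the Yap1 share differed in glia by a mean of -8.86 points, with differences of -10.8, -4.52, -10.7 and -9.39 points. In endothelial cells the mean difference was -13.8 points (-12.5, -13.8, -14.3 and -14.8). It was 32.6 points higher in basal keratin epithelium, 28.2 in simple epithelium and 26.7 in the neuronal lineage. Osteoblasts were 8.99 points and chondrocytes 5.13 points higher. All 7 of these differences had the same direction in 4 of 4 libraries, and each gave an exact two-sided sign permutation p of 0.13, the smallest that 4 pairs allow. With 9 comparisons none can pass a correction. The count of libraries depended on the gate for 3 classes. With 1 marker more, glia had 3 of 4 in direction (mean -5.71 points, control 2 at 0.278) and osteoblasts 3 of 4 (control 1 at -0.525), and with 1 marker fewer simple epithelium had 3 of 4 (control 2 at -3.05). Mural cells (6.57 points) and skeletal muscle (3.68 points) kept the direction in 3 of 4 libraries.

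Over all cells brought to equal depth, UMIs of both coactivators were found in the same cell in about the share that their single shares give by multiplication. Without that step the share with both was higher than the product. With all UMIs, 33.9% of the 13739 cells had a Yap1 UMI, 50.6% a Wwtr1 UMI and 19.5% both (exact 95% interval 18.9% to 20.2%), against 17.1% as the product of the single shares. Deeper cells have more UMIs of every gene, so each cell was thinned to 3000 UMIs, which left 12545 cells. The share with both was then 5.25% (interval 4.86% to 5.65%) against a product of 4.97%. In thinned mesenchyme it was 5.73% (interval 5.20% to 6.29%) against 5.72%, and a Wwtr1 UMI was in 35.8% of the cells with and without Yap1 alike.

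Glia showed Wwtr1 in 52.5% and Yap1 in 11.1% of 99 thinned cells. Both were in 4 of the 99, which is 4.04% (interval 1.11% to 10.0%) against a product of 5.84%. In basal keratin epithelium the thinned share was 4.43% (interval 3.01% to 6.27%) against 3.38%. The neuronal lineage had 14.7% of cells with both against a product of 5.40% before thinning. After it none of 133 cells had both, which allows up to 2.26%, but the product was then 0.113%, so this depth cannot show whether an excess remained. Simple epithelium likewise had both in 0 of 173 thinned cells, against a product of 0.825%. As background, a Wwtr1 UMI was found in 0.88% of 227 macrophages (median depth 8764 UMIs) and a Yap1 UMI in none, against 58.4% and 34.5% of mesenchyme cells (median depth 6904 UMIs).

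**Figure D3:**
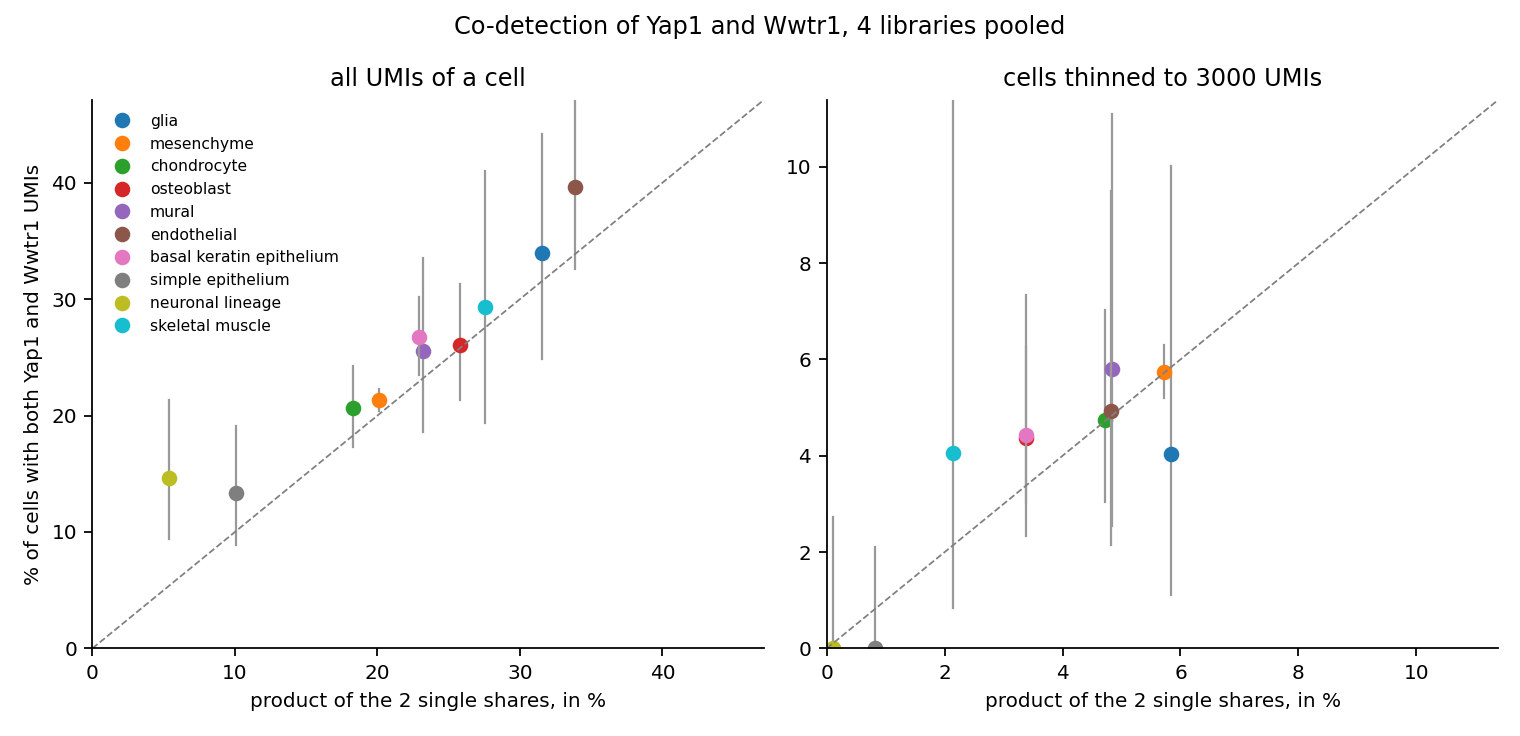
Percent of cells with both Yap1 and Wwtr1 UMIs (y axis, exact 95% binomial interval) against the product of the single shares in percent (x axis), 1 point per class with the 4 libraries pooled, for all UMIs of a cell (left) and for cells thinned to 3000 UMIs (right). On the dashed line both values are equal. The neuronal lineage lies above it with all UMIs (14.7% against 5.40%), and after thinning it is at 0 with a product of 0.113%.

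Of the TEAD factors, which carry the coactivators to DNA, Tead1 had the largest mean share of the UMIs in all 10 classes other than macrophages. Its mean share of the TEAD UMIs ran from 49.2% in skeletal muscle to 78.5% in glia. In skeletal muscle of mutant 1, Tead2 (41.8%) was slightly ahead of Tead1 (40.8%). Tead1 was at 274, 332, 221 and 317 CPM in glia and 251, 305, 265 and 260.2 CPM in mesenchyme, and these overlapped. It was lowest in osteoblasts (106, 144, 86.3 and 119.7 CPM), where it was below mesenchyme by a log2 difference of -1.11 ± 0.16 (edgeR adjusted p = 4.46e-07). It was also lower in chondrocytes (-0.57), endothelial cells (-0.52), skeletal muscle (-0.51) and macrophages.

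Tead2 was the next most frequent over all cells. In skeletal muscle it reached 121, 140.4, 155 and 118 CPM and 38.7% of the TEAD UMIs, and it was higher than in mesenchyme (102, 105, 101 and 107 CPM) by 0.53 ± 0.16 (edgeR adjusted p = 0.00636). It was lower than mesenchyme in basal keratin epithelium (-0.84), the neuronal lineage (-0.68), chondrocytes (-0.63), glia (-0.58), osteoblasts (-0.48) and macrophages. Macrophages gave 2 Tead2 UMIs in all.

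Tead3 was absent from the UMIs of 184 endothelial cells in all 4 libraries, which allows up to 1.01 CPM and puts it at least 25.3-fold below mesenchyme (25.0, 27.2, 23.9 and 27.1 CPM). Its highest values were in basal keratin epithelium (33.9, 41.7, 26.5 and 27.5 CPM), 10.0% of the TEAD UMIs there. In glia it was at 3.14, 35.2, 5.53 and 0 CPM from 10 UMIs, 7 of them in control 2. It was lower than mesenchyme in glia (-1.40 ± 0.42, edgeR adjusted p = 0.0113) and osteoblasts (-1.54 ± 0.29, edgeR adjusted p = 3.36e-05).

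Tead4 was rare, with 285 UMIs over all cells against 26504 of Tead1. Skeletal muscle had the highest level at 13.5, 39.5, 30.2 and 5.63 CPM, followed by endothelial cells at 12.7, 4.77, 17.0 and 6.39 CPM. Both spread widely and overlapped. No Tead4 UMI was found in glia, which allows up to 2.98 CPM. Mesenchyme was at 1.53, 1.36, 1.11 and 1.42 CPM, so glia could not be told from it.

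**Figure D4:**
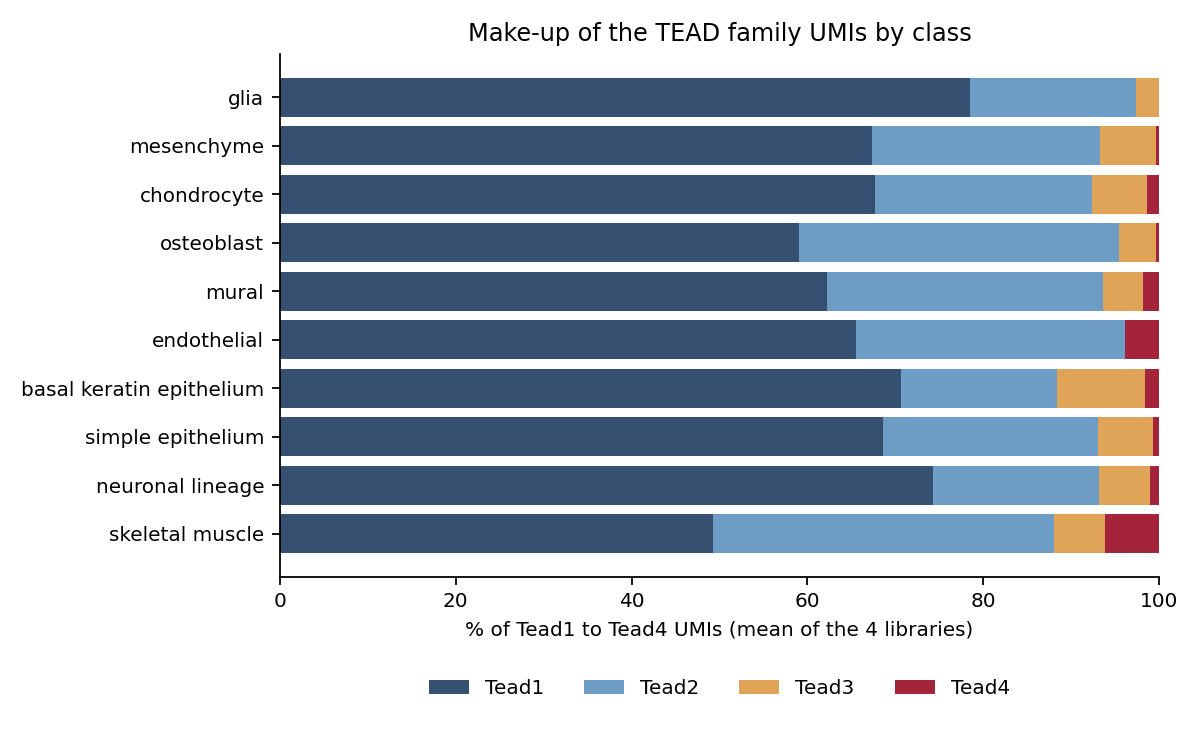
Make-up of the TEAD UMIs (x axis, percent of Tead1 to Tead4 UMIs, mean of the 4 libraries) in 10 classes (y axis). Tead1 is the largest part in each, from 49.2% in skeletal muscle to 78.5% in glia, Tead2 reaches 38.7% in skeletal muscle, and Tead3 is missing in endothelial cells.

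The Vestigial-like cofactors differed in their class patterns. Vgll3 was at 85.8, 86.0, 125 and 107 CPM in mesenchyme and 56.6, 95.5, 60.8 and 63.3 CPM in glia, which were not called different (log2 difference -0.62 ± 0.32, edgeR adjusted p = 0.171). Vgll3 was lower than in mesenchyme in the other 9 classes, by log2 differences of -1.78 in skeletal muscle to -5.74 in endothelial cells outside macrophages, which held 1 Vgll3 UMI in all. Chondrocytes (6.81, 5.08, 19.5 and 19.8 CPM) and osteoblasts (6.01, 5.07, 13.6 and 11.1 CPM), which also belong to the skeletal mesenchyme, were among the low classes.

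Vgll4, the competitor of the coactivators, was highest in 3 classes that are low in Wwtr1, the epithelia and the neuronal lineage. It was at 150.0, 159, 136 and 144 CPM in basal keratin epithelium, 162, 187, 178 and 179 CPM in simple epithelium, and 191, 76.5, 133 and 219 CPM in the neuronal lineage. Mesenchyme had 75.9, 77.4, 87.3 and 86.4 CPM. Skeletal muscle (61.7, 41.7, 41.5 and 56.3 CPM) and osteoblasts (61.9, 45.6, 56.0 and 73.1 CPM), where Wwtr1 was also lower than in mesenchyme, had less Vgll4 than mesenchyme in all 4 libraries, though neither difference was called. The log2 differences from mesenchyme were 0.88 ± 0.15, 1.07 ± 0.17 and 0.90 ± 0.16 (edgeR adjusted p = 1.95e-06, 7.24e-07 and 7.4e-06). In the neuronal lineage control 2, with 16 cells, lay within the mesenchyme values. In macrophages Vgll4 was at 28.6, 28.4, 13.1 and 34.7 CPM, the only member with more than 6 UMIs there.

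Patterns across classes are described by Pearson's r of log2(CPM + 1) over the 44 class by library sums, which share libraries and depth. Macrophages dominate it: Yap1 and Wwtr1 had r = 0.86 with them and 0.35 over the 40 sums without. Wwtr1 and Vgll4 had r = 0.34 with macrophages and -0.54 without. Among 9879 genes, those most like Yap1 were Tcf7l1, Zfp618, Msantd3, Mpdz and Nedd4 (r = 0.96 to 0.93), and without macrophages their r fell to between 0.57 and 0.16. Those most like Wwtr1 were Mest, Pxdn, Mpdz, Phldb2 and Kirrel (r = 0.93 to 0.91), and without macrophages r was 0.83, 0.78, 0.68, 0.81 and 0.68.

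The targeted genes were then compared between mutant and control libraries, the question of the design. With all cells summed, the controls held Yap1 at 65.0 and 65.2 CPM and the mutants at 56.4 and 56.0 CPM, so the groups did not overlap. Of genes with at least 20 UMIs, 13.3% were likewise lower. The log2 change was -0.25 ± 0.075 (edgeR adjusted p = 0.909). The control levels of Wwtr1, 118 and 145 CPM, overlapped the mutant ones, 123 and 132 CPM (log2 change -0.09 ± 0.13, edgeR adjusted p = 0.935). edgeR called 0% of 18080 genes, 883 had an unadjusted p under 0.05, and DESeq2 called 30. Fewer cells of a class and less RNA per cell cannot be told apart over all cells. Mesenchyme made up 53.1% and 57.2% of the control and 58.4% and 49.4% of the mutant cells.

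In glia, the class with Sox10 among its gating markers, neither coactivator was called. Yap1 UMIs numbered 18, 12, 17 and 8, and its level of 56.6 and 60.3 CPM in the controls overlapped 47.0 and 63.3 CPM in the mutants (log2 change -0.19 ± 0.42, edgeR adjusted p = 0.999). Without mutant 1 the change was 0.02. Wwtr1 was higher in both mutants, at 235 and 309 CPM, than in the controls, at 229.6 and 211 CPM, as were 19.2% of genes with at least 20 UMIs there. The log2 change of 0.22 ± 0.28 was within its error (edgeR adjusted p = 0.999), and it was 0.61 with 1 marker more and 0.07 without mutant 2. edgeR called 0% of 4916 genes in glia, 194 had an unadjusted p under 0.05, and DESeq2 called 0. The Yap1 share of both coactivators was 19.8% and 22.2% in the control and 16.7% and 17.0% in the mutant glia, a difference of -4.16 points (exact permutation p = 0.333, the smallest that 2 against 2 allow). That difference was -1.43 points with 1 marker fewer for the gate and -9.99 points with 1 marker more.

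The mutant effect in glia was set against that in mesenchyme by the class by group interaction. It was -0.00 ± 0.35 for Yap1 (edgeR adjusted p = 1.00) and 0.27 ± 0.26 for Wwtr1 (edgeR adjusted p = 0.937). No member was called in a test that called 0% of 14278 genes, of which 679 had an unadjusted p under 0.05. At 8 to 18 Yap1 UMIs in a glia library, a change of the size of its error could not be detected. Recombination was not measured in either class, so mesenchyme is not known to lie outside the reach of the Cre. The interaction therefore cannot be read as a targeted class set against an untargeted one.

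Of the 10 classes other than macrophages, Yap1 was lower in both mutants than in both controls in 6 and higher in none. The 6 did not include glia. They were mesenchyme, basal keratin epithelium, simple epithelium, osteoblasts, endothelial cells and the neuronal lineage. In these classes the share of all genes with at least 20 UMIs that lay lower in this way was 14.8%, 18.6%, 14.8%, 13.7%, 15.7% and 12.7%, and 15.1% over the 10 classes together. The classes come from the same 4 libraries and are not independent. Recombination was not measured in any of them. In mesenchyme the log2 change was -0.22 ± 0.090 (edgeR adjusted p = 0.614), and in basal keratin epithelium -0.41 ± 0.16 (edgeR adjusted p = 0.849). Endothelial cells had 50.8, 57.2, 44.2 and 33.0 CPM (-0.52 ± 0.30, edgeR adjusted p = 1.00), and osteoblasts 54.7, 65.9, 46.9 and 52.1 CPM (-0.28 ± 0.26, edgeR adjusted p = 0.993). The neuronal change of -0.96 was -0.10 without control 1. With 1 marker fewer for a gate, the change in simple epithelium turned from -0.54 to 0.08. Bpifa1 and Cbr2 were higher in both mutants in that class, and the part of its make-up in the change was not tested.

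**Figure D5:**
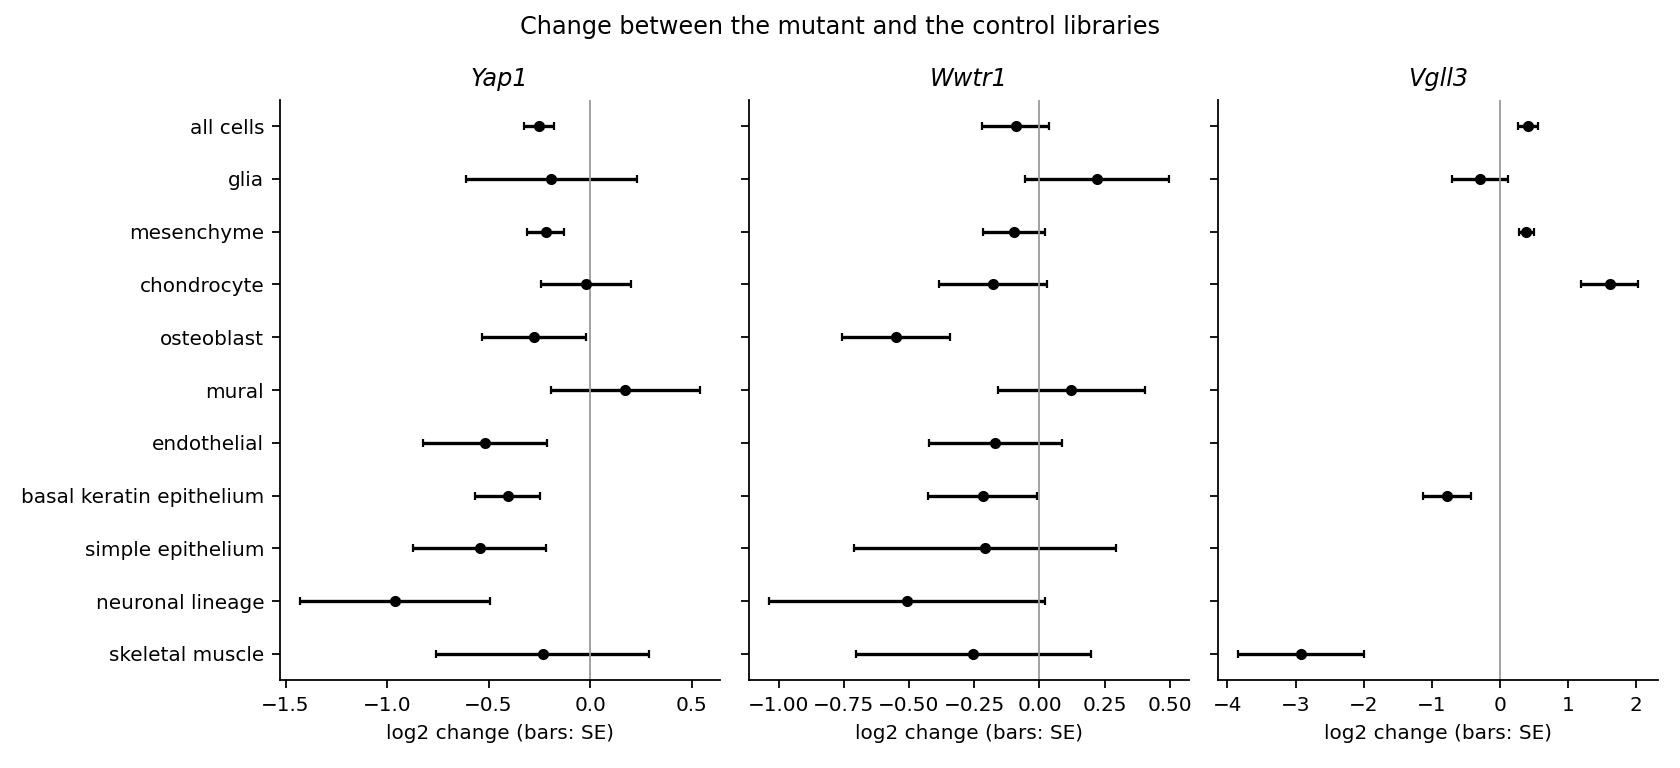
log2 change of Yap1, Wwtr1 and Vgll3 (x axes, mutant against control, edgeR with its SE, linear axes of different range) over all cells and in 10 classes (y axis). Classes in which the gene was filtered out have no point. Yap1 lies below 0 in all but mural cells, and Vgll3 lies above 0 in mesenchyme and chondrocytes and below 0 in basal keratin epithelium and skeletal muscle.

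Wwtr1 was apart in 3 classes, higher in mutant glia and lower in the mutant neuronal lineage and osteoblasts. The neuronal change of -0.51 was 0.0053 with 1 marker fewer for a gate. In osteoblasts it was at 113, 112, 71.1 and 86.4 CPM (log2 change -0.55 ± 0.21, edgeR adjusted p = 0.888), where 13.7% of genes with at least 20 UMIs were likewise lower. There the Yap1 share was 32.6% and 37.1% in the controls and 39.7% and 37.6% in the mutants, a difference of 3.79 points that was -0.858 points, with overlapping groups, with 1 marker more. In mesenchyme the Yap1 share differed by -1.75 points and in endothelial cells by -3.20 points, with overlapping groups in both.

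The log2 changes of Vgll3 in chondrocytes and skeletal muscle were larger in size than any of Yap1 or Wwtr1 in a class, though neither was called. Summed over all cells, Vgll3 was at 51.7, 59.6, 85.4 and 66.6 CPM (log2 change 0.41 ± 0.15, edgeR adjusted p = 0.909). In mesenchyme both mutants (125 and 107 CPM) were above both controls (85.8 and 86.0 CPM), a log2 change of 0.39 ± 0.11 (edgeR adjusted p = 0.483), where 25.8% of genes were likewise higher. Control chondrocytes had 6.81 and 5.08 CPM and mutant ones 19.5 and 19.8 CPM (1.61 ± 0.42, edgeR adjusted p = 0.762), where 18.6% of genes were likewise higher. The mesenchyme markers summed to 1371 and 1453 CPM in the control and 1776 and 1471 CPM in the mutant chondrocytes, with 3 of the 8 markers higher in both mutants, and their part in the result was not tested. Without mutant 1 the Vgll3 change was 0.22 over all cells and 0.26 in mesenchyme, and with 1 marker fewer it was 0.99 in chondrocytes.

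In basal keratin epithelium Vgll3 went the other way, with 22.0, 43.3, 19.0 and 16.4 CPM (-0.78 ± 0.36, edgeR adjusted p = 0.849). That change was -1.32 without control 1 (edgeR adjusted p = 0.000535) and -0.28 without control 2. The fit without control 1 has a single control, assumed to vary as the mutants do, and it called 7.05% of all genes. Skeletal muscle had 42.4, 28.5, 0 and 11.3 CPM (-2.92 ± 0.92, edgeR adjusted p = 0.999), from 13 and 10 mutant cells, and the change was -1.80 without mutant 1. A test of whether the mutant effect differs between the 11 classes, with library as a block and chosen after seeing these values, gave an edgeR adjusted p of 0.766 for Vgll3, and called 0% of 11206 genes. For the other 6 tested members the adjusted p was 1.00.

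Over the 8 members, edgeR called none of the 64 gene-class pairs it could test in the 11 classes, and 6 had an unadjusted p under 0.05. DESeq2 called none either. Among all genes edgeR called 1.44% in mural cells, 0.136% in endothelial cells, 0.0316% in macrophages and 0% in each of the other 8 classes. Without a filter on low counts edgeR called 1, Vgll3 in mesenchyme (edgeR adjusted p = 0.0368), in a fit that called 2.44% of all genes there. Of 70 pairs with at least 20 UMIs, 10 were higher in both mutants, 18 lower and 42 overlapped, where of all genes in these classes together 19.7% were higher and 15.2% lower.

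The kinases and regulators upstream of the coactivators and the genes they are known to drive were read from fixed lists. Over all cells, 0 of 23 Hippo kinases and upstream regulators were called, with a median log2 change of -0.08 against 0.00 for all genes tested. Of 22 YAP and TAZ targets 0 were called, with a median of -0.09. Lats2, Amotl2, Ptpn14 and Ajuba are on both lists, so the medians are not of separate genes. In glia 12 regulators and 8 targets could be tested, none was called, and their medians were -0.12 and 0.25 against -0.01 for all genes. In mesenchyme 23 and 20 could be tested, none was called, and the medians were -0.04 and -0.15. Of the other Vestigial-like cofactors, Vgll1 and Vgll2, 1 could be tested over all cells and was not called.

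Foxf2, a forkhead factor, was the only gene of these lists called in any class. In endothelial cells, where 0.136% of 8069 genes were called, it had 20 and 16 UMIs in the controls and 0 in both mutants, at least 12.7-fold lower (edgeR adjusted p = 0.0221). Mesenchyme markers in these sums were at 16.6, 19.1, 10.2 and 124 CPM, and their part was not tested. Foxf2 was also lower in both mutants in mural cells, at 15, 9, 0 and 2 UMIs, without being called. By CPM it was higher in both mutants in chondrocytes and osteoblasts, from 1 to 8 UMIs per library, and the groups overlapped in mesenchyme. The classical targets Ccn1 and Ccn2, secreted matricellular proteins, were not called. Ccn1 was at 188, 258, 179 and 195 CPM over all cells and 75.5, 161, 82.9 and 127 CPM in glia, overlapping in both. Ccn2 was at 25.1, 33.0, 27.7 and 28.4 CPM over all cells. Lats2, a Hippo kinase and itself a target, was at 40.0, 48.1, 37.2 and 37.5 CPM, lower in both mutants (-0.28 ± 0.11, edgeR adjusted p = 0.909). Nf2, an upstream activator of the kinases, was at 28.7, 32.0, 29.1 and 30.8 CPM, overlapping.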

How the data were processed

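The 4 libraries were deposited as gene by barcode matrices of raw UMI counts, which the authors made with Cell Ranger 8.0.1 per the file headers, while the submitters' processing notes list Cell Ranger 4, Seurat 4.3.0 and build mm10. Sequencing was done by more than 1 provider per the labels' protocols, which tie no library to either, so a batch could not be tested, and a further sample they mention was not analysed here. The genes and lists were chosen with earlier results of these data known, and the gating rule after seeing the data.

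Kept cells had 500 or more genes, with mitochondrial UMIs of 10% or less. They were named by at least 4 detected markers of 1 list. Scrublet in scanpy 1.11.5 marked 0 to 3 cells per library at its automatic threshold, so it had not worked and no doublets were removed. Removing the highest scores at 0.8% per 1000 barcodes was an alternative. The sums of each class in each library were tested over all genes with edgeR 4.0.16 (quasi-likelihood, TMM, filterByExpr, R 4.3.3) with Benjamini-Hochberg adjustment at 0.05, and with DESeq2 1.42.0 as an alternative. An SE was taken as the size of the log2 change over the root of edgeR's F. Fitted changes of genes near 0 depend on a prior count. A count of 0 was read as allowing up to 3 counts, and intervals are exact 95% binomial ones that cover counting error only. The glia of a library were 16 to 31 cells with 126380 to 361688 UMIs, of which 8 to 18 were of Yap1. Thinned cells were drawn to 3000 UMIs. Named genes were the 8 members in every class, the 5 genes most like Yap1 and Wwtr1 by correlation, pathway genes that passed the test, and Ccn1, Ccn2, Lats2 and Nf2. Melanoblasts and erythroid cells were too few to test. Gene positions are from GENCODE on GRCm38 and promoters from RefSeq on GRCm38.p6. Alternatives were no filter on low counts, size factors of DESeq2, the replicate number as a block, 1 marker fewer or more for a gate, at least 1000 genes with at most 5% mitochondrial UMIs, and each library left out.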

Additional observations from a re-analysis of the deposited data

Results flagged for a closer look

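For 5 members the mutant libraries lay above the controls in some classes and below them in others. Groups of single genes often do not overlap by these 2 against 2 libraries (shares of all genes are given with the counts above). How many of all genes lie apart in both directions over the classes was not counted. The count of 5 therefore cannot be read as particular to these members. The difference between single pairs of classes was not tested. The joint test over the 11 classes called none of them (edgeR adjusted p of 0.766 for Vgll3 and 1.00 for the others).

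Wwtr1 was separated upward in glia (log2 change 0.22) and downward in the neuronal lineage (-0.51) and osteoblasts (-0.55). Tead1 was separated upward in mural cells (0.11) and downward in basal keratin epithelium (-0.22) and skeletal muscle (-0.25). Tead2 was separated upward in basal keratin epithelium (0.10) and mural cells (0.20) and downward in the neuronal lineage (-0.63). Vgll3 was separated upward in chondrocytes (1.61), osteoblasts (1.16, from the mean CPM, since the fit filtered it out) and mesenchyme (0.39), and downward in basal keratin epithelium (-0.78) and skeletal muscle (-2.92). Vgll4 was separated upward in endothelial cells (0.53), mural cells (0.35) and mesenchyme (0.14), and downward in basal keratin epithelium (-0.15).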

How the results depend on the processing

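Setting by setting, 331 values were kept, 49 moved, 5 reversed and 1 passed the threshold under alternatives other than leaving out a library. With 1 library left out, 162 were kept, 39 moved, 5 reversed and 1 passed. A fitted change was kept if its sign and call stayed, and a difference of the Yap1 share if its sign stayed. Counts and co-detection shares were kept if they stayed close to the main value. No member was called between mutant and control in the main fits, so there a kept value mostly means an unturned sign. Its size could still change. Most of the moves were counts of genes called. With 1 marker fewer for a gate, the log2 change of Wwtr1 in the neuronal lineage was 0.0053 and that of Yap1 in simple epithelium 0.080. With 1 marker more, the Yap1 share in osteoblasts differed between mutant and control by -0.858 points. With no filter on low counts 1 member and class pair was called between mutant and control, in mesenchyme, where 596 of 24435 genes were called. From control libraries only, 29 pairs were higher than the mean of the other classes. Those contrasts called from 790 (glia) to 2417 (macrophages) of 11234 genes higher. Without macrophage cells, an alternative chosen after seeing the data, 23 pairs were higher. Also without them, Yap1 in osteoblasts against mesenchyme was 0.0045. The cause was not tested in these cases.

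Leaving out 1 library at a time, the log2 change of Wwtr1 ran from -0.24 to 0.077 over all cells and -0.22 to 0.034 in mesenchyme. Tead1 over all cells ran from -0.27 (without control 1) to 0.042, and Yap1 in glia from -0.33 to 0.024. From 0 to 1 pairs were called, the 1 being Vgll3 in basal keratin epithelium without control 1, in a fit with a single control that called 825 of 11700 genes. The mutant and control difference of the Yap1 share in mesenchyme ran from -3.68 to 0.17 points.

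The replicate numbers did not pair the libraries: deviations of libraries with the same number correlated by -0.09 to 0.11 over the classes. With a replicate block the interaction of Yap1 between glia and mesenchyme was 0.0027, and the block changed no call of a member. It called 105 genes in mesenchyme and 22 in glia, where 0 were called without it, and 4 in mural cells, where 83 were.

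Counts over all genes moved with the method. DESeq2 called 68 genes in mesenchyme, 31 in mural cells and 6 in endothelial cells, the last against 11 with edgeR. Without a filter 8 (skeletal muscle) to 596 genes (mesenchyme) were called in a class and 10 over all cells. With a library left out, counts reached 825 in basal keratin epithelium, 513 in mesenchyme and 410 over all cells. With stricter cells 22 genes were called in mural cells, and with 1 marker more 142. Skeletal muscle was not run with 1 marker more, stricter cells or doublets removed, and simple epithelium not with stricter cells, since a library then held under 10 cells. Outside macrophages, Yap1 UMIs were few in skeletal muscle, with 4 to 20 per library, glia, with 8 to 18, and control 2 of the neuronal lineage, with 5.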
